A study of Saccharomyces cerevisiae with 6 samples.

Results

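The polyadenylation landscape of growing wild-type budding yeast was described from 3 libraries of mRNA 3′ ends. Clusters of sites were chosen by their read counts: those whose reads, summed over these libraries, came to 10 or more. This kept 6713 of the 13565 deposited clusters of polyadenylation sites, in 3574 of 4014 genes. At the edge of that rule, 275 clusters stood at 10 reads and were kept, and 342 stood at 9 and were not. The libraries came from Saccharomyces cerevisiae with an intact JHD2 gene (genotype label Jhd2 WT), harvested in mid-log phase, and RNA was isolated with hot acid phenol. The same series holds 3 libraries of a JHD2 deletion strain, which played no part here. In 3′READS, the assay used, poly(A)-tailed fragments are isolated and read from the tail inward, so that 1 read marks the end of 1 RNA and levels need no division by gene length. Nothing in the labels says whether replicates were separate cultures, so the SDs given below may be technical. Because the wild-type counts chose the clusters, all values are descriptions and none was tested.

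The end of a yeast mRNA is made by cutting the nascent transcript and adding a poly(A) tail to the upstream piece. The cut is guided by short, loosely conserved signals on its upstream side: a UA-rich efficiency element recognised by Hrp1, an A-rich positioning element closer to the cut recognised by Rna15, and U-rich stretches around the cut itself. Since these signals are degenerate, a yeast gene often ends at several nearby places, and the cut chosen sets the length of the 3′ UTR and with it the regulatory sites the mRNA carries.

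The sequences below show these signals at sites described further on, read 5′ to 3′ on the coding strand of sacCer3 (RefSeq R64). All positions count from 1. The first 3 runs end at the main site of their gene, the cluster with the most reads, and capitals mark the word AATAAA, the form of the positioning element searched for. ACT1 encodes actin and was shown at chrVI:53154-53183 on the minus strand, HXK1 a hexokinase at chrVI:253422-253451 on the minus strand, and RPL9B a protein of the large ribosomal subunit at chrXIV:500532-500561 on the plus strand.
ACT1: ataaaaatAATAAAgtatttttaaggaaaa
HXK1: tcctagctAATAAAcatttttagattgtta
RPL9B: aaaAATAAAtattctctaatacgttacaaa

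The next 5 runs lie farther upstream, from 60 to 31 nt before the main site, and capitals mark TATATA or TACATA, the forms of the efficiency element searched for. They belong to RPS14A (chrIII:177428-177457, minus strand), EFB1 (chrI:143325-143354, plus strand), HAC1 (chrVI:76503-76532, plus strand), the histone gene HTB2 (chrII:237022-237051, plus strand) and RPS25A (chrVII:534008-534037, minus strand). In HTB2 the marked stretch holds overlapping copies of TATATA.
RPS14A: agttaaaaaatgtgTACATAtaatTATATA
EFB1: ctaatttgtgtaaccacTATATAaggaatc
HAC1: tttttTATATAaaactataaagaattcttg
HTB2: ttgtataaatgTATATATATAactttataa
RPS25A: atcattcaggaagtgaTACATAcaatagtc

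FBA1 (chrXI:326326-326355, minus strand) and ENO2 (chrVIII:452765-452794, plus strand), genes of glycolytic enzymes with high levels, are shown because AATAAA was absent from 30 to 10 nt before their main sites, and TATATA and TACATA from 80 to 20 nt before them. Both runs end at the main site.
FBA1: aaataatggaatattatttttatttattta
ENO2: tactttttcaaagactcgtgctgtctattg

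The 3 wild-type columns held 368419, 233749 and 277202 reads for replicates 1, 2 and 3, and 97.2% of the reads in each lay at the retained clusters. The table lists genes with 2 to 10 clusters, so its column totals do not give the depth of the libraries. TDH3, PGK1 and ADH1 were not analysed here. Replicate 2 stood apart. Across genes, log2 levels correlated with Pearson's r = 0.978 between replicates 1 and 3, and with r = 0.947 and 0.948 between replicate 2 and each of them, over points that share genes and depth. The biological coefficient of variation of gene levels was 13.6% with all libraries, 6.49% without replicate 2, and 16.1% and 16.9% without replicates 1 and 3. The mating type was checked with genes used as markers: the alpha-cell genes MF(ALPHA)1, MF(ALPHA)2, STE3 and SAG1 all had retained clusters. Of the 7 a-cell genes 2 are in the table, STE2 with 8 and STE6 with 4 wild-type reads in all, and neither had a retained cluster, while 3574 of all 4014 genes in the table did. The other 5 were not analysed here. Of 10 genes typical of cells that have stopped growing, 7 are in the table. A retained cluster was present in 5 of these 7, against 3574 of all 4014 genes in the table. The mean levels of the 5 lay between 38.8 and 99.8 counts per 1e6 reads (CPM). This is on either side of the median of 92.7 CPM over all 3574 genes.

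Levels were given as reads at the retained clusters of a gene per 1e6 such reads, after scaling. They spanned 10.1 to 16656 CPM, and the 100 most-read genes took 38.6% of the reads. The 10 highest of the 3574 genes alone took 10.5%, and 6 of them encode ribosomal proteins. Genes that are not in the deposited table have no level here and no rank. RPS14A, which encodes a small-subunit protein, stood first with 18372, 14636 and 16961 CPM in replicates 1, 2 and 3 (16656 ± 1886, SD, n = 3). EFB1, the nucleotide exchange factor of translation elongation, followed with 14864, 15868 and 17013 CPM. RPL34B, a large-subunit protein gene, had 11849, 17259 and 15161 CPM. The ranges of these 3 genes overlapped, so their order is not fixed by these libraries. FBA1, the aldolase of glycolysis, had 13146, 8942 and 12891 CPM, with replicate 2 the lowest. HAC1, the transcription factor of the unfolded protein response whose mRNA is spliced outside the nucleus, had 8404, 10830 and 9371 CPM. Below them RPS25A, RPS20, ASC1 (a ribosome-associated scaffold protein), RPL23B and RPL19B had means from 6993 to 7889 CPM, and their ranges overlapped as well.

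**Figure D1:**
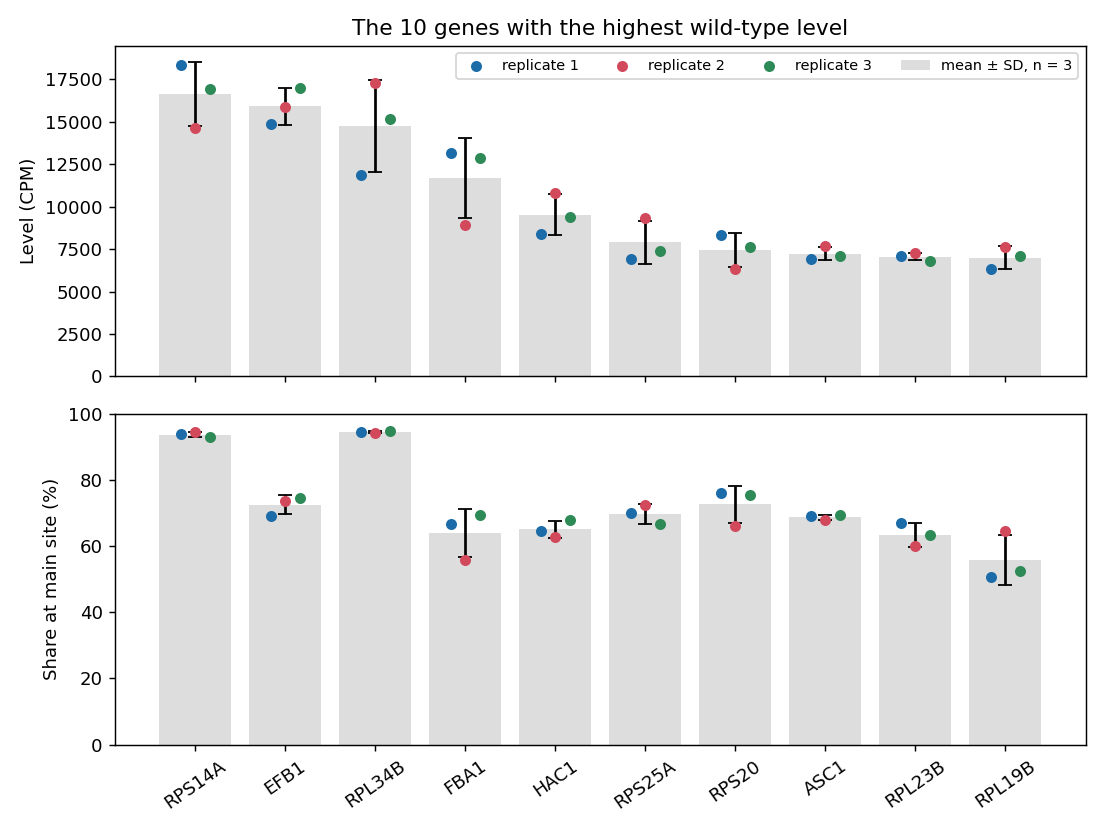
Level in CPM (upper panel) and percent of the reads of the gene at its main site (lower panel) for the 10 genes with the highest mean level. Bars are means with SD over 3 libraries and points are the libraries; RPS14A and RPL34B put over 90% of their reads on 1 site in every library, and FBA1 and RPL19B show replicate 2 apart from the others.

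A main site dominated most of the genes analysed, all of which have 2 or more clusters in the deposited table. For the 1520 genes with 100 or more reads, the average share at the main site was 77.8%, 77.4% and 77.4% in replicates 1, 2 and 3 (77.5% ± 0.271, SD, n = 3). Of these genes, 200 had 1 retained cluster, where the share is 100% by construction. Over the 1320 genes with 2 or more clusters the mean was 74.1% ± 0.312 (SD, n = 3), and the quartiles of the pooled share were 62.0%, 76.4% and 88.5%. Choosing the main site from a pair of libraries and measuring its share in the library left out gave 73.8% ± 0.264 (SD over the 3 held-out libraries). The same cluster led in all 3 libraries in 1206 of the 1320 genes (91.4%). In the 114 others the lead of the main site over the runner-up was small, with a median of 8.57 percentage points against 61.6 in the genes that kept 1 leader. No cluster reached 50% in 108 of the 1520 genes (7.11%).

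**Figure D2:**
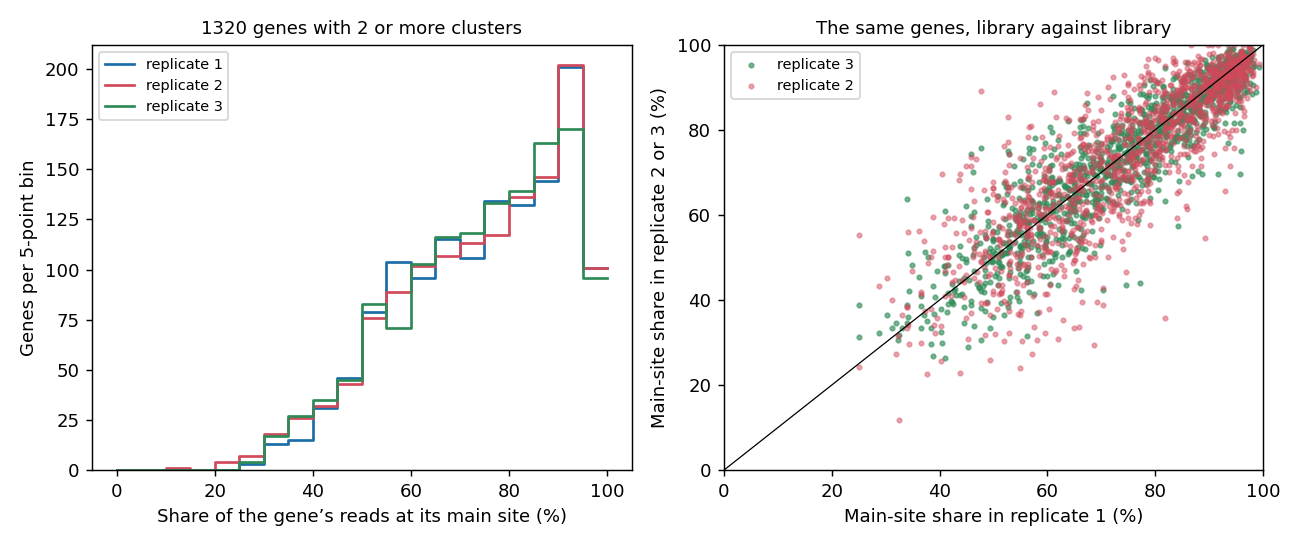
Left, number of genes per 5-point bin of main-site share in each wild-type library, for 1320 genes with 2 or more clusters and 100 or more reads. Right, the share of the same genes in replicate 2 (red) and 3 (green) against replicate 1; the points of replicate 2 scatter more widely around the diagonal (r = 0.847) than those of replicate 3 (r = 0.915).

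At one end of this range, reads gathered on 1 site. Among genes with 2 or more clusters HTB2, which encodes histone H2B, had 96.2%, 97.4% and 95.8% of its reads 195 nt past the stop codon. HXK1 had 94.3%, 97.8% and 95% at its main site, 170 nt past the stop codon, where AATAAA is printed above. RPS14A had 93.9%, 94.5% and 93.0%, with the rest 34 nt downstream. These genes were alike in that all libraries stayed above 90%. The 5 most-read genes of those with 1 retained cluster were GCV3 (a subunit of glycine decarboxylase), RNT1 (RNase III), SRP21 (a signal recognition particle subunit), BAP3 (an amino acid permease) and GPI10 (a mannosyltransferase of the GPI anchor pathway). RNT1 was uneven between libraries, at 385, 1205 and 456 CPM, the highest in replicate 2.

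At the other end, reads were divided among 4 or 5 sites. SBE22, a gene of cell wall formation, had 4 clusters 45, 172, 274 and 435 nt past the stop codon with mean shares of 25.3%, 25.4%, 22.6% and 26.7%. RHO1, the GTPase that governs cell wall synthesis, had 32.3%, 31.6% and 30.6% at its main site 292 nt past the stop codon and 32.3%, 25.6% and 34.0% at a site 185 nt past it. Neither site led in all libraries. RPS1A had 3 clusters of near-equal size, 133, 207 and 278 nt past the stop codon, at 30.5% ± 1.42, 31.2% ± 3.69 and 31.1% ± 3.68 (SD, n = 3). HST1, which encodes a histone deacetylase related to Sir2, had 5 clusters, and the largest, with 26.8% ± 3.85, lay inside the coding region 9 nt before its last base. ITR2, an inositol transporter gene, had 4 clusters, and its main site held 37.7%, 22.7% and 35.1%.

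ENO2, which encodes enolase, split its reads almost evenly. Its upstream site, 119 nt past the stop codon, held 46.9%, 52.4% and 47.4% of the reads, and the downstream site, 154 nt past it, held 53.1%, 47.6% and 52.6%. Replicate 2 put the order the other way round from the other libraries. Among the other abundant genes RPL19B split its reads between sites 86 and 115 nt past the stop codon, and the downstream site took 50.6%, 64.5% and 52.5%. The alpha-factor genes also used 2 sites each: MF(ALPHA)1 had 59.2%, 60% and 55% at 230 nt and the rest at 121 nt, and MF(ALPHA)2 had 76.5%, 66.8% and 78.5% at 188 nt and the rest at 140 nt.

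Only genes with 2 to 10 clusters are in the deposited table, so genes with a single site are missing from the counts below. A gene with 1 retained cluster had at least 1 more with under 10 wild-type reads. Within this selection, the number of retained clusters per gene averaged 1.88 over the 3574 genes. Of these, 1402 genes had 1, 1423 had 2, 567 had 3, 150 had 4, 28 had 5 and 4 had 6. This number depended on depth: it was 1.14 in genes with 10 to 29 reads, 2.62 in genes with 300 to under 1000 and 2.41 in genes with 1000 or more (Spearman's rho with reads 0.595 across genes, which are not independent replicates). An effective number, which weights each cluster by its reads, was 1.63 on average over the genes with 100 or more reads. By level it was 1.14 for 10 to 29 reads, 1.55 for 30 to under 100, 1.64 for 100 to under 300, 1.63 for 300 to under 1000 and 1.59 above. Over the genes with 100 or more reads its rank correlation with reads was 0.018. Of the 1520 genes, 313 (20.6%) had an effective number of 2 or more.

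The genes with the most clusters were LSP1, RPL36A, PIN3 and AFG2 with 6 each, followed by RPL9B with 5. LSP1, a core protein of the eisosome, spread its reads from 54 to 288 nt past the stop codon and had 41.5%, 59.3% and 41.6% at the main site. RPL9B had sites 147, 188, 230, 270 and 305 nt past the stop codon, spaced 35 to 42 nt apart. Its most distal site held 43.8% and 41.1% in replicates 1 and 3 and 22.9% in replicate 2, where the site at 188 nt led with 31.9%. RPL36A is a different case, since 78.8% ± 3.25 of its reads lay at 84 nt and the other 5 clusters lay 575 to 820 nt past the stop codon, 1 of them in the snoRNA gene SNR11 on the same strand. RPL36A is also 1 of 22 genes whose 200 nt before the main site have a near-identical copy elsewhere, so its reads are uncertain.

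Sites of a gene lay close together. Over 3139 pairs of neighbouring clusters the median distance was 56 nt, the quartiles were 37 and 108 nt, and 42.8% of pairs were under 50 nt apart. The smallest distance was 25 nt, which is set by the authors' clustering of ends within 24 bp. Where both clusters lay past the stop codon (2755 pairs) the median was 51 nt, and where the upstream one lay inside the gene (384 pairs) it was 863 nt. From the first to the last cluster, genes with 2 or more covered a median of 87 nt. The runner-up lay upstream of the main site in 612 genes and downstream in 708, at a median distance of 57 nt. In the 742 genes with 2 clusters the upstream one led in 392 (52.8%), and in the 129 genes with 4 the first and the last led in 28 and 19.

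**Figure D3:**
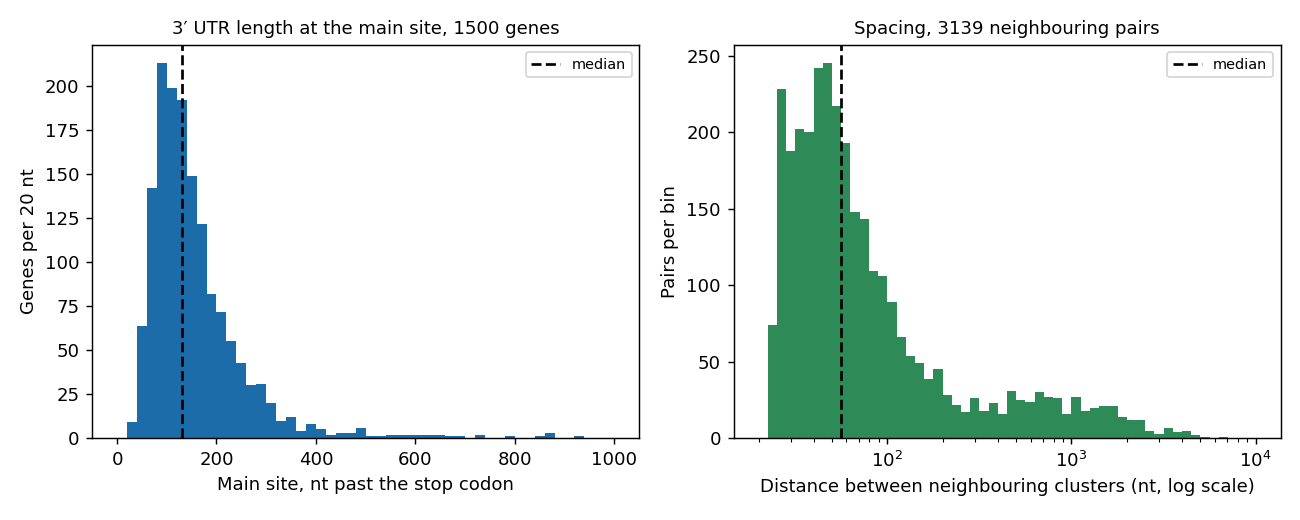
Left, distance of the main site past the stop codon for 1500 genes in bins of 20 nt; the dashed line is the median of 131 nt. Right, distance between neighbouring clusters of a gene on a log axis for 3139 pairs; the dashed line is the median of 56 nt, and a low shoulder beyond 500 nt holds 10.3% of the pairs.

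The widest genes had clusters several kb apart. TRA1, which encodes a large subunit shared by the SAGA and NuA4 complexes, spanned 7601 nt from a coding cluster with 8, 1 and 3 reads to sites 126 and 797 nt past the stop codon. URA2, the first enzyme of pyrimidine synthesis, spanned 5285 nt, with 92.3%, 89.5% and 89.7% of its reads at the normal end 127 nt past the stop codon. PRP8, a spliceosome protein, had its main site inside the coding region, 2090 nt after the start of the gene, with 28, 23 and 20 reads. ARO1, which makes the pentafunctional enzyme of aromatic amino acid synthesis, had 23, 7 and 13 reads 11 nt after its start. RPO21, the largest subunit of RNA polymerase II, had 6, 4 and 4 reads at 673 nt. Coding clusters of these genes rest on few reads.

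Most reads ended in the 3′ UTR. The 6276 clusters past the stop codon held 98.7%, 98.5% and 98.7% of the reads in replicates 1, 2 and 3 (98.6% ± 0.118, SD, n = 3). For the 1500 genes whose main site lay there, the 3′ UTR ended by it had a median length of 131 nt, quartiles of 95 and 188 nt and a range from 26 to 927 nt. The median was 131, 132 and 131 nt when the main site was taken from each library by itself. By level it was 129 nt for 100 to under 300 reads, 137 nt for 300 to under 1000 and 133 nt for 1000 or more. Genes with 30 to under 100 reads, outside this set, had a median of 122 nt. Plus-strand genes had a median of 132 nt and minus-strand genes 131 nt. Of the clusters past the stop codon, 759 (12.1%) lay within a gene annotated on the opposite strand, and 37 within another gene on the same strand.

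The shortest ends belonged to ECM27 at 26 nt, AHA1 (an activator of Hsp90) at 28 nt, PRB1 (vacuolar protease B) at 30 nt, CSS3 at 33 nt and SYF1 (a splicing factor) at 35 nt. SYF1 kept 94.4%, 92.6% and 95.8% of its reads there. The longest belonged to RTT101 (a cullin) at 927 nt, PHO12 (an acid phosphatase) at 873 nt, CAF20 (a binder of the cap-binding protein) at 867 nt, ASR1 at 860 nt and AIM9 at 840 nt. These distal sites lay close to the next gene in several cases: that of RTT101 lay 16 nt before the start codon of UBX6, that of PHO12 21 nt before IMD2 and that of CAF20 132 nt before HEM4. The site of AIM9 lay within SRG1, the noncoding RNA transcribed across the promoter of SER3, and within SER3 itself. PHO12 showed 2 ends of nearly equal use, with 44.4%, 45.1% and 43.3% at 67 nt and 50.3%, 47.6% and 51.0% at 873 nt. Near-identical copies were looked for only before main sites, so the end at 67 nt was not checked and its reads are uncertain.

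In all, 24 main sites lay more than 500 nt past the stop codon. Of these, 12 were within 300 nt before the start of the next gene on the same strand, against 372 of the other 1476 (25.2%). Sites were not matched for the distance between the genes. A site farther past its stop codon lies nearer to the next gene by position, so no conclusion is drawn from this contrast. Since a gene was extended by up to 1000 bp in the deposited assignment, whether such an end belongs to the gene's own mRNA or to a short transcript near the next promoter cannot be told apart from 3′ ends alone.

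Coding regions held 433 clusters in 381 genes with 1.32% ± 0.0966 of the reads (SD, n = 3). They were not evenly placed. Density was taken per 100 kb from start to stop codon, with introns and their 2 clusters included. Counted from the first base of the start codon, there were 73.9 clusters in the first 25 nt, 23.5 in the next 25, 2.24 between 100 and 199 nt and 9.09 beyond 1000 nt. The 87 clusters in the first 50 nt had a median of 26 reads. Of these 87, 37 were the main site of their gene, against 3574 of all 6713 retained clusters, since every gene has 1 main site. For 60 of the 87 (69.0%) another gene on the same strand ended within 1000 nt upstream, against 49.4% of all genes. Clusters upstream of a start codon are given to no downstream gene in this table, apart from 1 retained cluster, and the clustering width of 24 bp is close to the width of the densest bin. Whether that assignment shaped the excess was not tested.

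The main site lay in the coding region in 20 of the 1520 genes, and in 11 of these within 50 nt of the start. Runs ending at 4 of the sites near a start are given below, with capitals on the start codon. They are from HRP1 (chrXV:87825-87854, plus strand), YPS3 (chrXII:390270-390299, minus strand), YJL068C (chrX:313898-313927, minus strand) and LAP2 (chrXIV:542955-542984, plus strand). In YPS3 the last aligned base is the first base of that codon. It closes a run of genomic A bases, so the cut may lie before the codon.
HRP1: agaataagttaaataagcaATGagctctga
YPS3: aatagagcaaaattactcggcattgaaaaA
YJL068C: acatagttcaatATGaaggttgttaaggaa
LAP2: tctaattgATGttcttgcttccatttgtca

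YJL068C, which encodes S-formylglutathione hydrolase, had 112, 66 and 100 reads 17 nt after its start, 71.9% ± 3.99 of its reads (SD, n = 3), and MPM1 ended 199 nt upstream. LAP2, an aminopeptidase gene, had 77, 51 and 67 reads at 21 nt (72.3% ± 3.46), and YNL046W ended 141 nt upstream. In both genes the ends past the stop codon held the smaller part of the reads in every library. YPS3, a protease of the yapsin family, had 48.6%, 54.6% and 48.6% at the site aligned to its first base. BAP2, a permease for branched-chain amino acids, was unlike them: its main site lay 747 nt after the start with 62.1%, 63.0% and 62.7% of the reads, flanked by further clusters at 686 and 787 nt, and 18.1%, 10.9% and 11.3% reached the end 191 nt past the stop codon. DSE3 had 59.6%, 64.4% and 76.8% at a coding site 1152 nt after its start.

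Introns held 2 clusters. That of RPL26B lay 204 nt after the start of the gene with 211, 219 and 148 reads, which was 15.5% ± 1.97 (SD, n = 3) of the reads of this ribosomal protein gene, and 75.1% ± 1.14 ended 131 nt past the stop codon.

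Some regulators of RNA 3′ ends and some nucleotide synthesis genes are associated with early ends in yeast, and their sites were looked at as a list. NRD1, which encodes the RNA-binding subunit of the Nrd1 termination complex, had 5, 4 and 11 reads 253 nt after its start and 18, 4 and 19 at its main site 146 nt past the stop codon. HRP1, the binder of the efficiency element, had 44, 27 and 28 reads 10 nt after its start, 11, 4 and 7 at 234 nt, and 29, 9 and 7 at 126 nt past the stop codon. The early sites of HRP1 thus held 65.5%, 77.5% and 83.3% of its reads, and no other gene ended within 1000 nt upstream on that strand. NAB2, a poly(A)-binding protein, had 96.0%, 94.2% and 98.0% of its reads at a site 166 nt past the stop codon. That site (chrVII:278780-278809, minus strand) closes a run of 26 genomic A bases, capitals below, the run through which Nab2 is known to bind its own mRNA.
NAB2: ttttAAAAAAAAAAAAAAAAAAAAAAAAAA

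URA2 had 3, 4 and 4 reads 1486 nt after its start. IMD2 and IMD3, enzymes of guanine nucleotide synthesis, had retained sites past the stop codon alone, and IMD3 placed 71.7%, 87.2% and 71.4% at 109 nt. Clusters before a start codon are as a rule given to no downstream gene, so ends just before IMD2 would not be counted with it. The main site given to PHO12 lay 21 nt before the start of IMD2, and which transcript ends there was not tested. ADE12 put 67.3%, 88.6% and 86.2% at 97 nt, and CLN3, a G1 cyclin, had a single retained cluster of 18 reads. Of the genes known for truncated transcripts, RNA14 had coding clusters at 1053, 1509 and 1535 nt after its start with 12, 11 and 13 reads summed over replicates 1, 2 and 3, beside 32, 28 and 30 at its main site 107 nt past the stop codon. CBP1 had 3, 1 and 7 reads at 1050 nt and 11, 4 and 7 at 95 nt past the stop codon. AEP2 had 16, 15 and 15 reads at a coding site 581 nt after its start, its main site. SIR1 had its 1 cluster in the coding region, with 7, 12 and 3 reads, and SUA7 had its 1 cluster 279 nt past the stop codon.

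Among genes whose ends were studied classically, ACT1 had 85.8%, 83.4% and 80.7% of its reads at 106 nt, 6.45%, 6.45% and 8.30% at 183 nt and 7.77%, 10.2% and 11% at 290 nt past the stop codon. HIS3 had 71.2%, 50.0% and 71.9% at 88 nt. YPT1 and TRP4 each had 1 cluster, at 107 and 71 nt, and TRP1 split 32 reads between 63 and 105 nt. Of 19 listed glycolytic genes 8 are in the deposited table, and all 8 had a retained cluster, as did 3574 of all 4014 genes. Main sites lay 82 to 239 nt past the stop codon in the 7 of them with 100 or more reads. PFK1 put 92.9%, 94.9% and 93.1% at 239 nt, and PFK2, the other subunit of the same enzyme, had 58.0%, 58.0% and 59.6% at 114 nt and a further 26.9% ± 1.87 at 337 nt. Of the 9 listed histone genes 3 are in the table, and all 3 had a retained cluster. These were HTA2 and HTB2, with main sites 198 and 195 nt past the stop codon, and HTZ1, which encodes the variant H2A.Z, with its main site at 162 nt. HTA2 also had 19, 17 and 10 reads 18 nt after its start.

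The ribosomal protein genes were the largest list, with 78 of 132 in the deposited table. All 78 had a retained cluster, as did 3574 of all 4014 genes in the table. Their median level was 1816 CPM, against 92.7 CPM over all genes. In the 76 of them with 100 or more reads and 2 or more clusters, the median main-site share was 75.8%, against 76.4% over all 1320 such genes. In the 77 with 100 or more reads, main sites lay 57 to 386 nt past the stop codon. Their median was 115 nt, against 131 nt over the 1500 genes with a main site there. Paralog pairs, picked after their values were seen, could differ widely in level: RPS14B had 979 ± 150 CPM beside the 16656 of RPS14A, and RPL23A had 1163 ± 33.0 CPM beside 7051 ± 218 of RPL23B (SD, n = 3). They could also differ in site use, since RPL23A had 97.6%, 99.6% and 96.7% at 1 site and RPL23B 67.1%, 60% and 63.3%. RPL19A and RPL19B were alike in both using 2 sites, with 56.2% ± 7.80 and 55.8% ± 7.55 at the main one. The main site was the upstream one in RPL19A, with 49.8%, 64.9% and 53.8% in replicates 1, 2 and 3, and the downstream one in RPL19B. In replicate 1 the downstream site of RPL19A led with 50.2%, so its order was not the same in all libraries. RPL19A has a near-identical copy elsewhere, so its reads are uncertain.

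Of 22 cleavage and polyadenylation factor genes 20 are in the table, and 18 had a retained cluster, against 3574 of all 4014 genes. Their median was 99.8 CPM. PAB1, the main cytoplasmic poly(A)-binding protein, was the highest with 999.6, 984 and 969 CPM and had 91.4% ± 2.44 at 152 nt past the stop codon. GLC7, the phosphatase of the complex, had its main site 422 nt past the stop codon, the farthest in this list among genes with 100 or more reads. REF2 split 33 reads between 86 and 929 nt, and SSU72 had 4, 5 and 5 reads in its coding region.

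The genomic sequence around the sites was not used by the rule. The site itself, the last aligned base, was A in 95.1% of the 1520 main sites, and the next base was A in none, which is a property of the alignment: a tail A that matches the genome is aligned. A site at the end of k genomic A bases can therefore have been cut at any of them. This run had a median of 2 at main sites and a length of 0 in 75 of them. Upstream, A and T together made up 75.9% from 60 to 31 nt before the main sites and 73.1% from 30 to 11 nt, against 61.7% in the nuclear genome. Between 40 and 3 nt before the site, adenine was highest at 18 nt, with 46.8% of main sites, and thymine was lowest at 17 nt, with 26.4%. Thymine was 42.9% at 3 nt after the site. At the other 2093 sites of these genes the same upstream bands held 71.6% and 71.1% A and T.

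**Figure D4:**
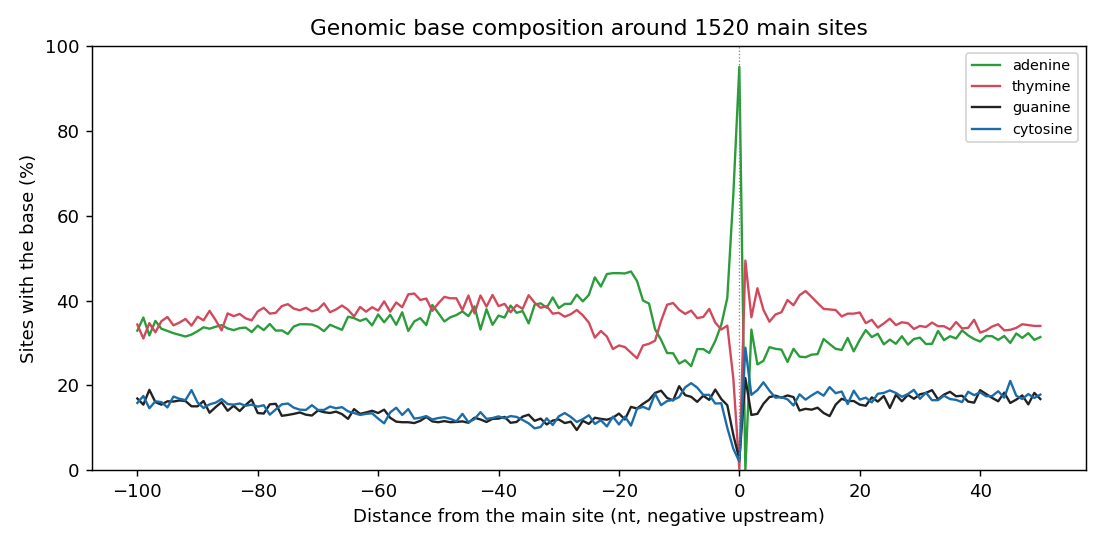
Percent of the 1520 main sites with each base at each distance from the site in nt, on the coding strand of the genome. Adenine reaches 46.8% at 18 nt upstream, falls to 24.5% at 8 nt and climbs again next to the site, the site is adenine in 95.1% of cases, and the next base is never adenine because such bases are aligned as part of the read.

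The efficiency element words TATATA or TACATA, searched on the coding strand from 80 to 20 nt before the site, were present at 799 of 1520 main sites (52.6%). They were present at 35% of the other sites of the same genes, at 21.5% of coding-region sites and in 5.11% of all windows of that length on both strands of the nuclear genome. TATATA alone was found before 43.0% of main sites and was the commonest of all hexamers there, followed by ATATAT, which overlaps it, at 35.3%. The words began most often 45 nt before the main site. They fell from 14.1 per 100 main sites in the 5 nt from 45 to 41 nt before the site to 7.57 at 30 to 26 nt, 1.12 at 25 to 21 nt and 0.0658 at 15 to 11 nt, where the genome average is 0.643. The runs of EFB1, HAC1, HTB2, RPS14A and RPS25A printed above are from the zone where they are dense. In the 1320 genes with 2 or more clusters, the main site alone had a word in 366, the runner-up alone in 189, both in 308 and neither in 457. A match is a description and not a shown binding site.

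AATAAA, searched from 30 to 10 nt before the site, was rarer: 8.22% of main sites, 5.69% of other sites and 1.55% of genome windows held it. It was densest at 25 to 21 nt before the main site, with 4.61 words per 100 sites against 0.498 in the genome. AAAAAA, the alternative form, was found in the same window at 8.88% of main sites, 6.69% of other sites and 2.05% of genome windows. Weighted by reads, 47.8%, 47.1% and 47.7% of the reads at retained sites in replicates 1, 2 and 3 had an efficiency word in its window (47.5% ± 0.389, SD, n = 3), and 8.06% ± 0.0730 had AATAAA.

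**Figure D5:**
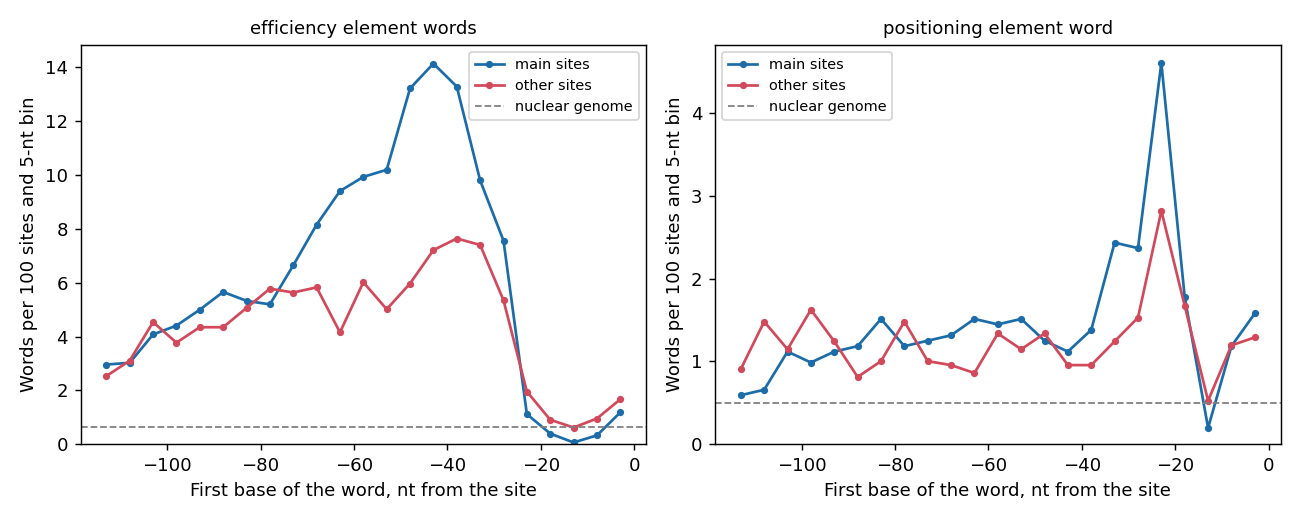
Number of words per 100 sites in 5-nt bins by the position of their first base, for efficiency element words (left) and the positioning element word (right), at main sites (blue) and the other sites of the same genes (red); the dashed line is the average over the nuclear genome. Efficiency words peak at 14.1 per 100 main sites at 45 to 41 nt before the site and lie below the genome line from 20 to 6 nt before it, and the positioning word peaks at 4.61 at 25 to 21 nt.

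Long genomic A runs ended at 21 main sites with 10 or more A bases, the longest with 30 A bases in EMC6, a subunit of the membrane protein complex of the endoplasmic reticulum. Reads at clusters with runs of 15 or more made up 0.399%, 0.738% and 0.424% of the reads in replicates 1, 2 and 3, and replicate 2 was the highest. RGS2, which encodes a regulator of G-protein signalling, showed this gene by gene, with 686, 1507 and 860 CPM and a run of 28 A bases. GCN1, a translational regulator, had 804, 1932 and 879 CPM and a run of 23. NAB2 had 275, 532 and 382 CPM. Of the 24 main sites more than 500 nt past the stop codon 4 had such a run, those of GCN1, RGS2, SMX2 and LNP1, and of the other 1476 it was 17. The filter for unaligned T bases asks for 2 or more tail bases beyond the genome; whether part of these reads began inside the A runs was not tested.

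Replicate spread differed with depth. The coefficient of variation of the level had a median of 13.9% over genes with 100 or more reads and 9.67% over those with 1000 or more. For the main-site share, the variance between libraries was set against the variance that counting alone gives, as an index. When 3 libraries differ by counting alone, this index has a mean of 1 and a median of 0.693. Over the 1320 genes its mean was 2.11 and its median 1.03, both above those values, and the mean in the 147 genes with 1000 or more reads was 6.50. Replicate 2 was the farthest from the median of the 3 in 87 of these 147 genes, replicate 1 in 25 and replicate 3 in 35. Over the same 1320 genes the mean index was 1.21 for the pair of replicates 1 and 3, 2.49 for replicates 2 and 3, and 2.76 for replicates 1 and 2. The shift of replicate 2 had no common direction, since its share was below the mean of replicates 1 and 3 in 78 of the 147 genes.

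Among all genes FBA1 had the highest index, 55.7, with shares of 66.8%, 55.7% and 69.4% at a site 82 nt past the stop codon, 27 nt downstream of the other. RPL24A, with 74.0%, 51.9% and 68.9% at its main site, reached 51.5, RPL9B 50.8 and RPL19B 42.8. In all 4 genes replicate 2 was the farthest from the others. In FBA1, RPL24A and RPL9B replicate 2 used the upstream sites more, and in RPL19B it used the downstream site more. The largest ranges of share among genes with 100 or more reads were in GCS1 (81.8%, 35.7% and 63.2%), an ARF GTPase activator, EST3 (57.1%, 27.3% and 71.9%), a telomerase subunit, ENP1 (47.7%, 89.2% and 75.8%), needed for the small ribosomal subunit, SEC22 (40.5%, 69.7% and 30%), a vesicle SNARE, and PCL1 (68.7%, 29.3% and 51.0%), a cyclin of Pho85. In all 5 replicate 2 was either the lowest or the highest, and 4 of the 5 rested on 103 to 132 reads in all.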

How the data were processed

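Wild-type 3′READS libraries (3) were analysed, and the 3 deletion columns were not used. The deposited table gives raw whole-number read counts, 1 row per cluster. The authors, per the series description, mapped reads over 15 bp to sacCer3 with Bowtie2 (version not given in the sources used here) after removing 4 bp. They kept reads with a mapping quality of at least 10, no more than 5% mismatches and at least 2 unaligned T bases. Ends were clustered within 24 bp, given to genes extended by up to 1000 bp, and filtered at 3 reads and 5% of the gene's reads. All table columns matched a library label.

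Deposited positions were first taken as counted from 1. The reference base after the site is A at 0 of 6712 clusters on either strand only if they count from 0, so 1 was added to every position. Genes and coding regions came from RefSeq R64, where 1 identifier found no match. A gene's level is its reads at retained clusters in CPM after TMM scaling (edgeR 4.0.16, R 4.3.3), its SD taken over 3 libraries; size factors of DESeq2 1.42.0 were an alternative. Genes with 100 or more reads entered share, distance and motif summaries. Scripts were tested on simulated data with known shares and levels. The 200 nt before main sites were aligned to the genome with blastn 2.17.0 (100 nt or more at 95% identity counted as a copy).

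Members and lists were chosen with earlier results of these data known. Genes named are the 10 highest in level; among genes with 100 or more reads the 5 extreme in share, cluster number, span, distance, range of share and reads at coding main sites; and members of the lists. Alternatives were cluster and gene minimums, merged clusters, other scalings, motif settings and leaving out each library.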

Additional observations from a re-analysis of the deposited data

How the results depend on the processing

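No test was run, so no call could change; "moved" below means by more than 1 SD between libraries, or, for the percent of genes with the same leader, beyond its 95% binomial interval of 91.1% to 93.8%. That percent was 92.5% over all 1520 genes, of which 200 had 1 retained cluster and agree by construction. Its interval treats genes as independent and does not measure the spread between libraries. With a cluster minimum of 20 the main-site share was 79.9%, the held-out share 71.8%, the clusters per gene 1.58, the median spacing 54 nt, the median span 75 nt, the median 3′ UTR 132 nt, the reads past the stop codon 99% and the sites with AATAAA 7.99%. With every cluster of 1 read or more the first 5 of these were 76.0%, 75.6%, 3.24, 63 nt and 193.5 nt, and the reads past the stop codon 97.9%. With clusters past the stop codon alone they were 78.6%, 74.3%, 1.78, 51 nt and 71 nt, the median 3′ UTR 132 nt and AATAAA 8.03%. With clusters of 5% or more of their gene the main-site share was 78.0%, the held-out share 72.8%, the clusters per gene 1.82 and the span 84 nt. With genes of 300 reads or more the main-site share was 77.2%, the same leader was found in 93.9%, the median 3′ UTR was 137 nt, the mean and median index of spread 3.20 and 1.35, AATAAA 9.46% and the efficiency words 49.4%. With genes of 30 reads or more the share was 78.5%, the same leader 86.7%, the 3′ UTR 128 nt and AATAAA 7.29%. Merging clusters within 30 nt gave 1.76 clusters per gene and a spacing of 65 nt. Taking positions as counted from 1 gave 8.09% with AATAAA, and allowing 1 mismatch gave 46.6% with AATAAA and 96.8% with the efficiency words.

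Leaving out each library in turn gave a main-site share of 78.2% to 78.4%, a same leader in 94.7% to 97.1% (of a pair of libraries), 1.64 to 1.73 clusters per gene, a spacing of 55 nt, a span of 77.5 to 80 nt, a 3′ UTR of 133 to 136 nt, reads past the stop codon of 98.7% to 98.8%, AATAAA at 8.20% to 8.32% and efficiency words at 50.4% to 52.4%. The mean index of spread ranged from 1.28 without replicate 2 to 3.32 without replicate 3, and its median from 0.520 to 0.982, where counting alone gives a median of 0.455 for a pair of libraries. Clusters and genes were chosen anew from each pair, so these values do not cover the same 1320 genes as the index above. The level of RPS14A moved by less than its SD under every scaling and with each library left out (15686 to 17729 CPM). For the main-site shares of the 101 named genes, 581 of 698 values under these alternatives stayed within 1 SD between libraries and 117 did not. No paired analysis was possible because the values come from no test and from 1 group of libraries. Depth limits the count of weak clusters, as the cluster minimums show, and genes under 100 reads were left out of the shares.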
